A study of Mus musculus with 6 samples.

Results

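The 40 genes described here carry glucose into the cell, run glycolysis, decide whether pyruvate enters the mitochondrion or becomes lactate, and sense and answer low oxygen. They were chosen by gene symbol from textbook membership of these pathways, with earlier results of these data known. All 40 were found among the 20405 genes of the array, and each was read by the brightest of its probe sets on average. RNA came from 2 lines of FVB/N mouse ovarian surface epithelial (OSE) cells, M0505 and STOSE, with 3 arrays for each line. M0505 is the parental OSE line, used at early passage, and STOSE is the spontaneously transformed line that arose from it over long-term culture. The labels name no introduced allele. Both lines were grown in the same mouse OSE medium, which was α-Minimal Essential Medium supplemented with fetal calf serum, EGF, ITSS, Gentamicin, Streptomycin and Penicillin. No oxygen or glucose treatment is labelled, so the comparison was between the lines alone. Each group is 1 cell line, so transformation, passage, growth rate and karyotype cannot be told apart. The study reported aneuploidy in both lines, with near-diploid and near-tetraploid M0505 cells and near-triploid and polyploid STOSE cells. The labels call the arrays biological replicates but do not say that they came from separate cultures, so the p-values measure the spread between these samples.

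Glycolysis splits glucose into pyruvate in the cytosol. Pyruvate is then either reduced to lactate by lactate dehydrogenase or oxidized in the mitochondrion by pyruvate dehydrogenase, which the pyruvate dehydrogenase kinases switch off. The hypoxia-inducible factors (HIF) are transcription factors whose α subunits are hydroxylated by oxygen-dependent prolyl hydroxylases, bound by the VHL protein and destroyed, so that in low oxygen they persist and turn on genes of glucose uptake, glycolysis, lactate export, pH control and mitochondrial turnover. Many tumor cells run glycolysis in the presence of oxygen, and several steps have isozymes from different genes that differ in tissue and in regulation. Transcript levels, which the arrays measured, do not give HIF protein, enzyme activity or flux.

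The deposited values were robust multi-array average (RMA) values on a log2 scale, so a difference of 1 is a 2-fold difference. Log2 fold changes are STOSE minus M0505, with standard errors (SE) and Benjamini-Hochberg adjusted p-values from limma, fitted on all 20405 genes. A gene was called at an adjusted p under 0.05 and a change of at least 2-fold. Levels of different genes were not ranked against each other, because probe sets differ in brightness. Arrays of the same line correlated at 0.997 to 0.999 over all genes, and arrays of different lines at 0.943 to 0.95. Olfactory receptor genes, which these cells are not known to express, gave a background level, the 95th percentile of their 1134 probe sets being 4.74. All arrays of 37 members lay above it, and 0 members lay under it in both lines, against 5643 of all genes.

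The OSE identity of the lines was read from 9 marker genes, and all 9 lay above the background level in both lines. *Wt1* was 11.39 in M0505 and 10.76 in STOSE, and *Upk3b* 12.25 and 11.91. The summed log2 level of the list was 100.85 to 101.42 in M0505 and 85.74 to 86.79 in STOSE. By adjusted p alone 8 of the 9 were lower in STOSE, and *Cdh2* did not pass. Called lower were *Krt19* (-5.56, 47.2-fold), *Krt8* (-4.55, 23.5-fold), *Gata4* (-1.38) and *Krt7* (-1.03). The fibroblast or stroma list of 5 genes summed to 38.88 to 39.22 in M0505 and 41.81 to 42.27 in STOSE, with *Thy1* called higher. By adjusted p alone 3 of its genes were higher and 1 lower, *Dcn*, by 0.45 (adjusted p = 0.00056). In each line 4 of the 5 lay above the background level, and *Lum* lay under it in both. The leukocyte list of 5 genes summed to 26.22 to 26.96 and 24.43 to 24.71, with 2 above the background level in M0505 and 3 in STOSE. *Ptprc* and *Cd79a* were under it in both lines, *Tyrobp* was 4.66 and 4.77, *Cd3e* was 5.09 and 5.31 (adjusted p = 0.048), and *Cd68*, a lysosomal protein, was called lower, by 2.82. Sums were 26.62 to 26.78 and 26.03 to 27.40 for 6 granulosa and theca genes (1 above the background level in M0505 and 2 in STOSE), 22.25 to 22.55 and 22.33 to 22.83 for 5 endothelial genes (3 above it in each), and 13.46 to 13.66 and 13.92 to 14.46 for 3 erythroid genes (1 above it in each). The part of these marker differences in the results was not tested.

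Of the 40 members, 5 were called higher and 8 lower in STOSE. The genes called higher were the glucose transporter *Slc2a1*, *Hk2*, *Pfkp*, *Egln3* and *P4ha2*. The genes called lower were *Aldoc*, *Eno2*, *Ldhb*, *Pdk1*, *Pdk2*, *Pdk4*, *Epas1* and *Bnip3*. Over all genes, 4.9% were called higher and 7.59% lower, and among the brighter 50% of genes, which held 35 of the members, 7.6% and 10.8%. In bulk RNA, fewer cells of a type and less RNA per cell cannot be told apart. By adjusted p alone, 17 members were higher and 14 lower, against 31.6% and 24.8% of all genes, and 9 did not pass. The arrays of the lines did not overlap for 32 members (80.0%), against 64.6% of all genes, so a lack of overlap alone was common on these arrays. The median log2 fold change of the members was 0.09, beside 0.08 over all genes, and the median size of the change, without its sign, was 0.56 beside 0.25. The members thus had no common direction. By the brightest probe sets their changes spread from -4.59 for *Bnip3*, whose second probe set gave -2.16, to 2.38 for *Egln3*.

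**Figure D1:**
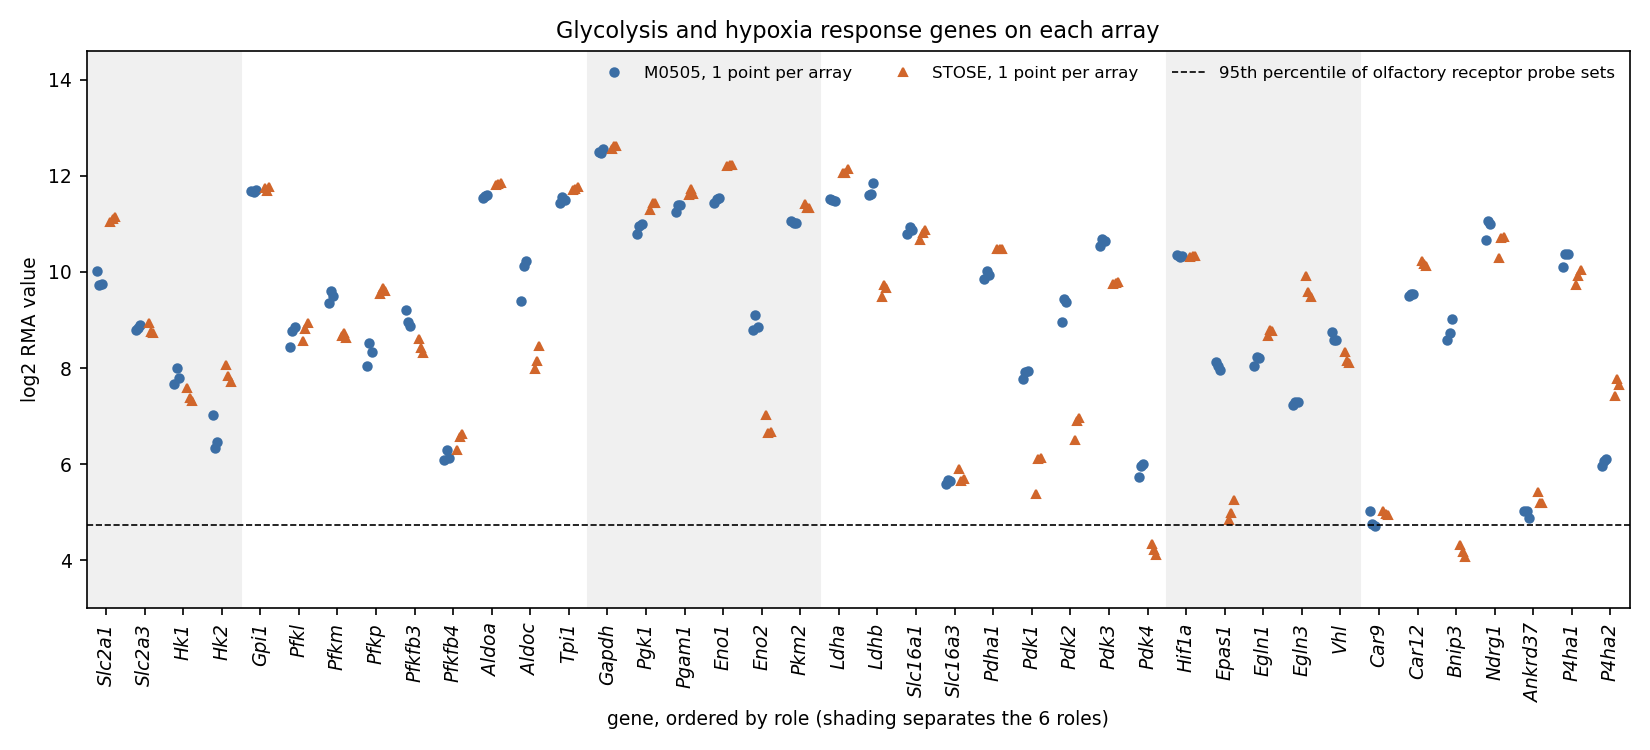
Log2 RMA values of the 40 genes in each of the 6 arrays, ordered by role, with 1 point per array. For the 5 genes called higher and the 8 called lower the points of M0505 and STOSE stand apart, while for *Hif1a* they lie on top of each other at a mean of 10.32.

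Of the 4 genes of glucose entry and phosphorylation, *Slc2a1* and *Hk2* were called higher and none lower. *Slc2a1* encodes GLUT1, the transporter that supplies basal glucose to most cells. Its log2 values were 10.01, 9.72 and 9.76 in M0505 and 11.04, 11.10 and 11.14 in STOSE. The lowest STOSE array lay above the highest M0505 array, and the change was 1.27 (SE 0.08, 2.41-fold, adjusted p = 4.49e-06). *Slc2a3*, the high-affinity transporter GLUT3, had means of 8.85 and 8.81 and a difference of -0.04 with a 95% interval of -0.21 to 0.13 (adjusted p = 0.673). The hexokinases trap glucose in the cell by phosphorylation. *Hk2*, the regulated form found in muscle, fat and many tumors, was 7.02, 6.34 and 6.46 in M0505 and 8.07, 7.82 and 7.70 in STOSE. Replicate 1 was the highest array of both lines, and the lines did not overlap. The rise was 1.26 (SE 0.17, 2.39-fold, adjusted p = 0.000323), with a 95% interval of 0.86 to 1.66 that reached under 2-fold. *Hk1*, the form present in most tissues, was lower by 0.40 (adjusted p = 0.0104), but with each array centred on its median its difference was -0.20 (adjusted p = 0.0878).

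Among the 9 genes of upper glycolysis, from the hexose phosphates to the triose phosphates, *Pfkp* was called higher and *Aldoc* lower. Phosphofructokinase commits sugar to glycolysis, and its subunits come from a liver, a muscle and a platelet gene. The platelet gene *Pfkp* was 8.05, 8.52 and 8.34 in M0505 and 9.55, 9.66 and 9.60 in STOSE. The STOSE arrays agreed closely and all lay above the M0505 arrays, a rise of 1.30 (SE 0.11, 2.47-fold, adjusted p = 1.99e-05). The muscle gene *Pfkm* was 9.36, 9.60 and 9.50 in M0505 and 8.66, 8.72 and 8.63 in STOSE, lower in every STOSE array by a mean of 0.82 (adjusted p = 2.5e-05), which is under 2-fold. The liver gene *Pfkl* differed by 0.08 with an interval of -0.22 to 0.38 (adjusted p = 0.639). The enzymes *Pfkfb3* and *Pfkfb4* make and remove the sugar phosphate that activates phosphofructokinase. *Pfkfb3* was lower by 0.57 (adjusted p = 0.00191) and *Pfkfb4* higher by 0.32 (adjusted p = 0.0194), both under 2-fold.

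Aldolase cleaves the hexose bisphosphate into trioses. The aldolase C gene *Aldoc*, best known from brain, was 9.39, 10.13 and 10.22 in M0505 and 7.97, 8.14 and 8.45 in STOSE. Its M0505 arrays were the more spread (SD 0.46, against 0.24 in STOSE, n = 3 each), yet the lowest of them lay above all STOSE arrays. The change was -1.73 (SE 0.22, 3.31-fold, adjusted p = 0.000188). *Aldoa*, the common aldolase, was higher by 0.25 (adjusted p = 0.0041), and *Tpi1*, which interconverts the trioses, by 0.23 (adjusted p = 0.0104). *Gpi1*, the isomerase that follows hexokinase, differed by 0.05, with an interval of -0.08 to 0.18.

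In lower glycolysis, from the triose phosphates to pyruvate, 4 of 6 genes were higher by adjusted p, against 31.6% of all genes. None of these reached 2-fold, and *Eno2* alone was called. Enolase makes phosphoenolpyruvate, and *Eno2* encodes its γ subunit, known as neuron-specific enolase. Log2 values of *Eno2* were 8.78, 9.09 and 8.85 in M0505 and 7.03, 6.64 and 6.67 in STOSE. All STOSE arrays were lower, with a mean change of -2.13 (SE 0.12, 4.38-fold, adjusted p = 1.94e-06). *Eno1*, the enolase of most tissues, was 11.44, 11.52 and 11.53 and 12.20, 12.22 and 12.22, higher in every STOSE array by a mean of 0.72 (SE 0.06, 1.65-fold, adjusted p = 1.09e-05). The other changes were 0.46 for *Pgk1* and 0.33 for *Pkm2*, which encode the enzymes that make ATP in this stretch, and 0.30 for the mutase gene *Pgam1* (adjusted p = 0.000845, 0.00116 and 0.00476). *Pkm2* is the table's symbol for the gene now named Pkm, and its value was read for the gene and not for an isoform. *Gapdh*, often used as a reference gene, differed by 0.09, with an interval of -0.04 to 0.22 (adjusted p = 0.188).

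**Figure D2:**
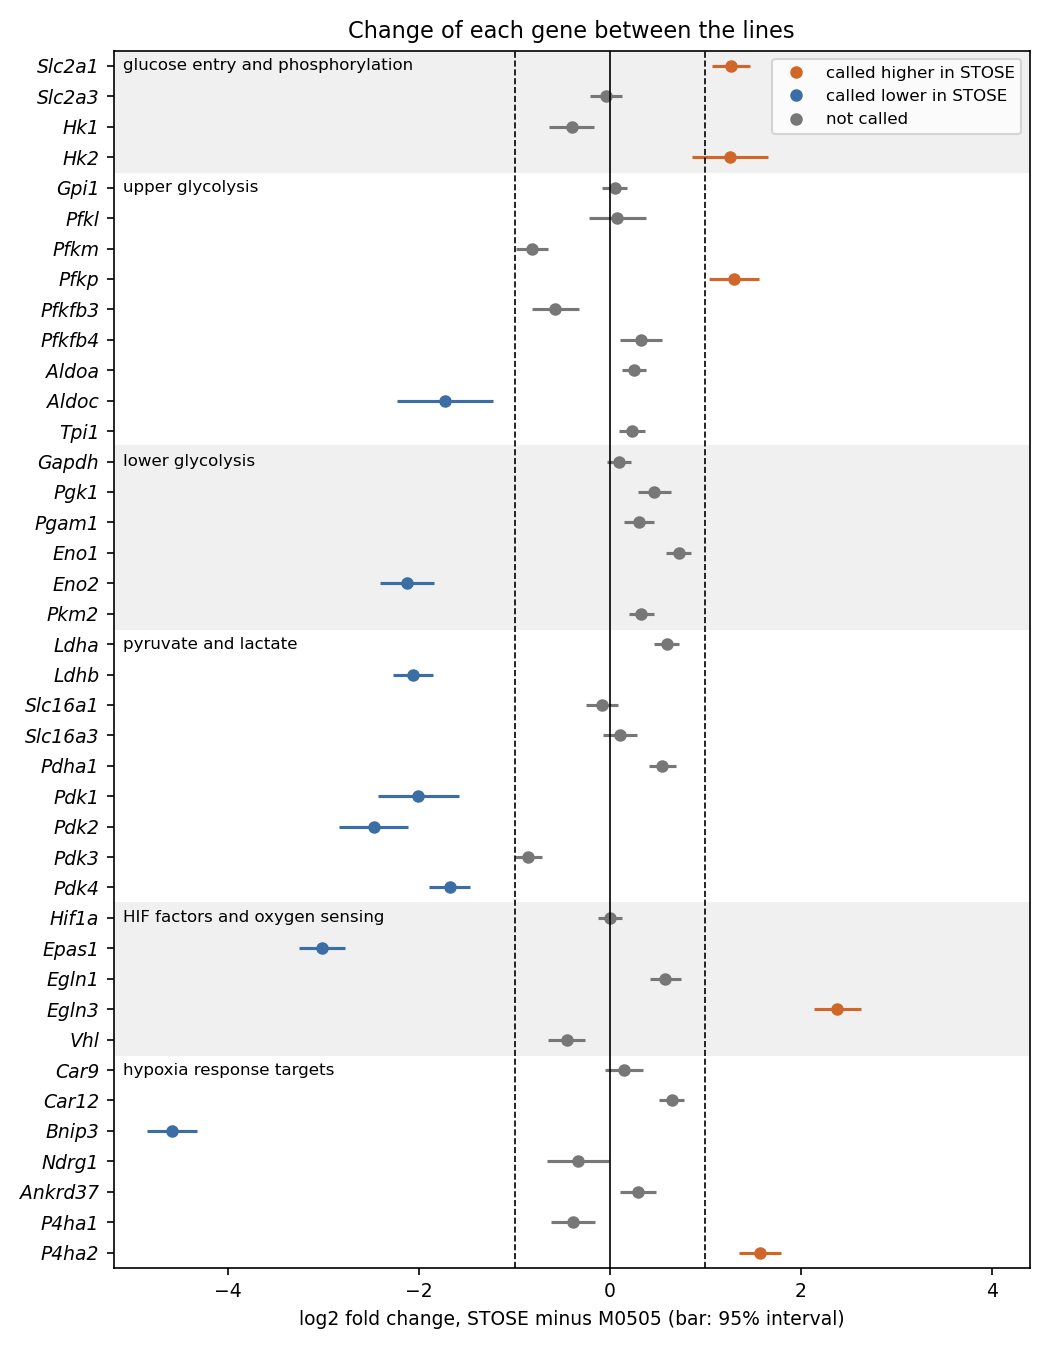
Log2 fold change, STOSE minus M0505, of each of the 40 genes with its 95% interval from limma, grouped by role, with dashed lines at 2-fold. Called genes stand beyond the dashed lines, from *Egln3* at 2.38 to *Bnip3* at -4.59 by its brightest probe set, and no gene of pyruvate and lactate metabolism is called higher.

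The 9 genes that act on pyruvate and lactate held 4 of the 8 falls and none of the rises, against 7.59% and 4.9% of all genes. The falls were *Ldhb* and the kinase genes *Pdk1*, *Pdk2* and *Pdk4*. The median log2 fold change of the 9 was -0.85. For 16 other pyruvate and lactate genes, read below, it was 0.004, with 0 called. Lactate dehydrogenase is built from A and B subunits, and B-rich forms are typical of oxidative tissues such as heart. *Ldhb* was 11.60, 11.62 and 11.84 in M0505 and 9.47, 9.73 and 9.66 in STOSE. The groups were far apart, with a change of -2.07 (SE 0.09, 4.19-fold, adjusted p = 4.88e-07). *Ldha* was 11.52, 11.49 and 11.48 and 12.06, 12.06 and 12.14, and every STOSE array was higher. Its change of 0.59 (SE 0.06, 1.51-fold, adjusted p = 3.31e-05) was under 2-fold. The transporters that carry lactate across the membrane did not pass the test. *Slc16a1* (MCT1) differed by -0.08, with an interval of -0.25 to 0.08, and *Slc16a3* (MCT4) by 0.11, with -0.08 to 0.29.

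All 4 pyruvate dehydrogenase kinase genes were lower in STOSE by adjusted p, against 24.8% of all genes. *Pdk1*, *Pdk2* and *Pdk4* were called lower, against 7.59% of all genes. These kinases phosphorylate and inactivate pyruvate dehydrogenase. *Pdk1*, a known HIF target, was 7.77, 7.91 and 7.93 in M0505 and 5.37, 6.11 and 6.12 in STOSE. The STOSE replicate 1 array was the lowest, and all 3 STOSE arrays lay under the M0505 arrays. The change was -2.01 (SE 0.19, 4.02-fold, adjusted p = 2.96e-05). *Pdk2*, a widely expressed kinase, was 8.96, 9.45 and 9.38 in M0505 and 6.50, 6.89 and 6.97 in STOSE. It fell by 2.47 (SE 0.16, 5.56-fold, adjusted p = 3.38e-06), without overlap. *Pdk4*, a kinase known to rise in fasting, was 5.73, 5.97 and 6.0 in M0505 and 4.35, 4.21 and 4.10 in STOSE, where all arrays were under the background level. Its change was -1.68 (SE 0.09, adjusted p = 1.68e-06), and against the background level it was at least 2.23-fold lower. *Pdk3* was 10.54, 10.68 and 10.63 and 9.75, 9.76 and 9.78, lower by 0.85 (SE 0.06, adjusted p = 5.61e-06) and short of 2-fold. The subunit genes of their target did not all move alike. *Pdha1*, a catalytic subunit gene of pyruvate dehydrogenase, was 9.84, 10.01 and 9.93 in M0505 and 10.48, 10.48 and 10.48 in STOSE, higher by 0.55 (SE 0.06, 1.46-fold, adjusted p = 0.000103). A second *Pdha1* probe set, under the background level in both lines, gave 0.15. Of the other subunit genes, *Pdhb* was lower by 0.17 (adjusted p = 0.0429). *Dlat*, *Dld* and *Pdhx* were higher by 0.27, 0.41 and 0.34 (adjusted p = 0.00278, 0.00063 and 0.00291).

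Among the HIF factors and oxygen sensors, the α subunit genes differed from each other. *Hif1a*, the α subunit of HIF-1, was 10.34, 10.30 and 10.33 in M0505 and 10.31, 10.32 and 10.34 in STOSE. The arrays overlapped, both means were 10.32, and the difference of 0.00 had a 95% interval of -0.12 to 0.12 (adjusted p = 0.995). *Epas1*, the α subunit of HIF-2, was 8.13, 8.05 and 7.97 in M0505 and 4.85, 4.99 and 5.26 in STOSE. All STOSE arrays lay just above the background level and far under M0505, a change of -3.02 (SE 0.11, 8.09-fold, adjusted p = 1.39e-07).

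*Egln3*, the prolyl hydroxylase PHD3 and itself a HIF target, had the largest rise of the 40 genes. Its values were 7.24, 7.29 and 7.29 in M0505 and 9.92, 9.57 and 9.48 in STOSE. The groups did not overlap, and the change was 2.38 (SE 0.11, 5.22-fold, adjusted p = 5.09e-07). *Egln1*, the main HIF hydroxylase PHD2, was higher by 0.58 (SE 0.07, 1.5-fold, adjusted p = 0.000148). *Vhl*, which marks hydroxylated HIF for destruction, was lower by 0.45 (SE 0.08, 1.37-fold, adjusted p = 0.00181).

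Of the 7 hypoxia response targets, *Bnip3* was called lower and *P4ha2* higher. *Bnip3*, a mitochondrial outer membrane protein that takes part in mitophagy, was 8.59, 8.74 and 9.02 in M0505 and 4.31, 4.17 and 4.08 in STOSE, where all arrays were under the background level. The change was -4.59 (SE 0.11, adjusted p = 1.91e-08), which against the background level is at least 16.4-fold lower. The bound sets the mean of the M0505 arrays against 4.74 in place of each STOSE value under it. A second *Bnip3* probe set read 6.85, 7.03 and 7.47 in M0505 and 4.94, 5.16 and 4.75 in STOSE. It also fell without overlap, but its change was -2.16 (SE 0.17, 4.48-fold, adjusted p = 1.53e-05 over all probe sets), so the size of the change depended on the probe set, and by the second *Epas1* and *Pdk2* fell more. *P4ha2*, a subunit of the hydroxylase that matures collagen, was 5.96, 6.07 and 6.10 in M0505 and 7.43, 7.78 and 7.66 in STOSE. It rose by 1.57 (SE 0.09, 2.98-fold, adjusted p = 2.41e-06), and its paralog *P4ha1* was lower by 0.39 (adjusted p = 0.0117).

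The surface carbonic anhydrases, which set the pH outside the cell, did not reach 2-fold. *Car12* was 9.50, 9.55 and 9.54 in M0505 and 10.23, 10.17 and 10.13 in STOSE, higher by 0.65 (SE 0.06, 1.56-fold, adjusted p = 2.18e-05). *Car9*, a much used marker of hypoxia, was 5.02, 4.75 and 4.71 and 5.02, 4.96 and 4.93, close to the background level, with a difference of 0.15 and an interval of -0.05 to 0.35 (adjusted p = 0.184). Without M0505 replicate 1 the difference of *Car9* was 0.24 (adjusted p = 0.0139). *Ankrd37*, a HIF target of little known function, was higher by 0.29 (adjusted p = 0.0136). *Ndrg1*, a stress-responsive gene, was 10.66, 11.05 and 10.99 and 10.28, 10.70 and 10.72. Its lines overlapped, and the difference of -0.33 did not pass (interval -0.66 to -0.01, adjusted p = 0.0774), while it passed without M0505 replicate 1 (-0.45, adjusted p = 0.0267).

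HIF binds DNA at a short core, and the promoters of known HIF targets on both sides of the comparison are shown because genes of this class moved in opposite directions. Windows of 300 bases, from 250 before the gene start to 50 after it, came from RefSeq on GRCm38.p6 and were matched for 37 of the 40 genes. The letters ACGTG and GCGTG were searched on both strands, so that a match on the opposite strand reads CACGT or CACGC here and CACGTG counts on both. Capitals mark each match. The fallen genes are *Bnip3* (chr7:138909457-138909756, minus strand) and *Pdk1* (chr2:71872974-71873273, plus strand), and the risen genes are *Egln3* (chr12:54203825-54204124, minus strand) and *P4ha2* (chr11:54100674-54100973, plus strand).
Bnip3: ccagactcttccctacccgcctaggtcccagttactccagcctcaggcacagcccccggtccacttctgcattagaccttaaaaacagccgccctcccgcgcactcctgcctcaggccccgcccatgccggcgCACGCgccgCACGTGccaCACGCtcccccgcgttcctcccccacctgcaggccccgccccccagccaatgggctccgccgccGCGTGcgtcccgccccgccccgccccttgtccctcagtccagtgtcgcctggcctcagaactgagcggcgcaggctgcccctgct
Pdk1: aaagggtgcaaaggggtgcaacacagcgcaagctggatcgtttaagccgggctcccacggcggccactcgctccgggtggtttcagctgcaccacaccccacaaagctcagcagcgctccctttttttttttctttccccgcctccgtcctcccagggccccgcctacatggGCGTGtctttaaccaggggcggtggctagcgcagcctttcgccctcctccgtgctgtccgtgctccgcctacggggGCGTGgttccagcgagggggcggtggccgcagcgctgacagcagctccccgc
Egln3: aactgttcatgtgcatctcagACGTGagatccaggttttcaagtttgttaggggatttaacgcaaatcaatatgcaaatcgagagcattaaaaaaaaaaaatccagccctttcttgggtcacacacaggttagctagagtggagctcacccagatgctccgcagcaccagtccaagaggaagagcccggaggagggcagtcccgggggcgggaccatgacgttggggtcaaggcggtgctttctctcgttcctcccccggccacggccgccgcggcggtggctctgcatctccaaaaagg
P4ha2: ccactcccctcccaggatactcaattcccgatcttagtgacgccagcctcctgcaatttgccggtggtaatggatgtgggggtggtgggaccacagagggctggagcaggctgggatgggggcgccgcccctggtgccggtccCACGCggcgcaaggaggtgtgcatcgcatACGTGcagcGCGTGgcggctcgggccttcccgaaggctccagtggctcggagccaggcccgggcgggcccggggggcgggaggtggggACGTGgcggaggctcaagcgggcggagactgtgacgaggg

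The windows held 5 matches in *Bnip3*, 2 in *Pdk1*, 1 in *Egln3* and 4 in *P4ha2*, so fallen and risen genes both had them. A second *Pdk1* window, with a later gene start, held 0 matches and is not shown. Of all 51 windows of the members, 40 (78.4%) held at least 1 match, against 43.8% of all 32851 RefSeq windows. Those were not limited to genes of the array. Some windows of the same gene, such as those of *Eno1*, overlap and share matches. A match was found for 5 of 5 genes called higher, 6 of 7 called lower and 21 of 25 not called, and for 46.7% of the 27025 RefSeq genes with a window. Among the called genes with a window *Eno2* alone had no match, and *Epas1* had no window. A match is a description of letters and not a measured binding site, and the base composition of the windows was not tested.

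Within families, the changes of members were compared in pairs. For 20 pairs of related genes the difference of log2 values was taken within each array and compared between the lines, which asks whether the ratio of the pair changed. In 19 pairs the arrays of the lines did not overlap, each with an exact two-sided permutation p = 0.1, the smallest that 3 arrays against 3 allow (0.105 adjusted over the 20 pairs), so no pair could pass 0.05. In 12 pairs the ratio also changed at least 2-fold. The share of all genes whose own arrays did not overlap, given above, applies to single genes and not to pairs. No share over other pairs of genes was taken. Several pairs set a called gene beside an uncalled one, and some pairs share a gene. The counts therefore describe these pairs alone.

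By the brightest probe sets the largest shift in a ratio was 8.09-fold, for *Epas1* over *Hif1a*. Its difference went from -2.27 (SD 0.08, n = 3) to -5.29 (SD 0.20, n = 3). The isozyme pairs *Eno2* over *Eno1* and *Ldhb* over *Ldha* followed, with ratios 7.21-fold and 6.32-fold lower in STOSE. The difference of *Ldhb* and *Ldha* went from 0.19 (SD 0.15) to -2.47 (SD 0.12). In both pairs the second gene gained on the first. *Pfkp* over *Pfkm* rose 4.34-fold, *Aldoc* over *Aldoa* fell 3.94-fold and *Hk2* over *Hk1* rose 3.16-fold. The difference of *Hk2* and *Hk1* went from -1.22 (SD 0.51) to 0.44 (SD 0.05), and its spread in M0505 was the widest of these pairs. *Egln3* over *Egln1* rose 3.49-fold and *P4ha2* over *P4ha1* 3.89-fold. Within the kinases, *Pdk3* gained on *Pdk2* by 3.07-fold and on *Pdk1* by 2.22-fold, as its own fall was the smallest. The ratio of *Pdk4* to *Pdk1* overlapped between the lines (change 0.33, exact permutation p = 0.4).

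**Figure D3:**
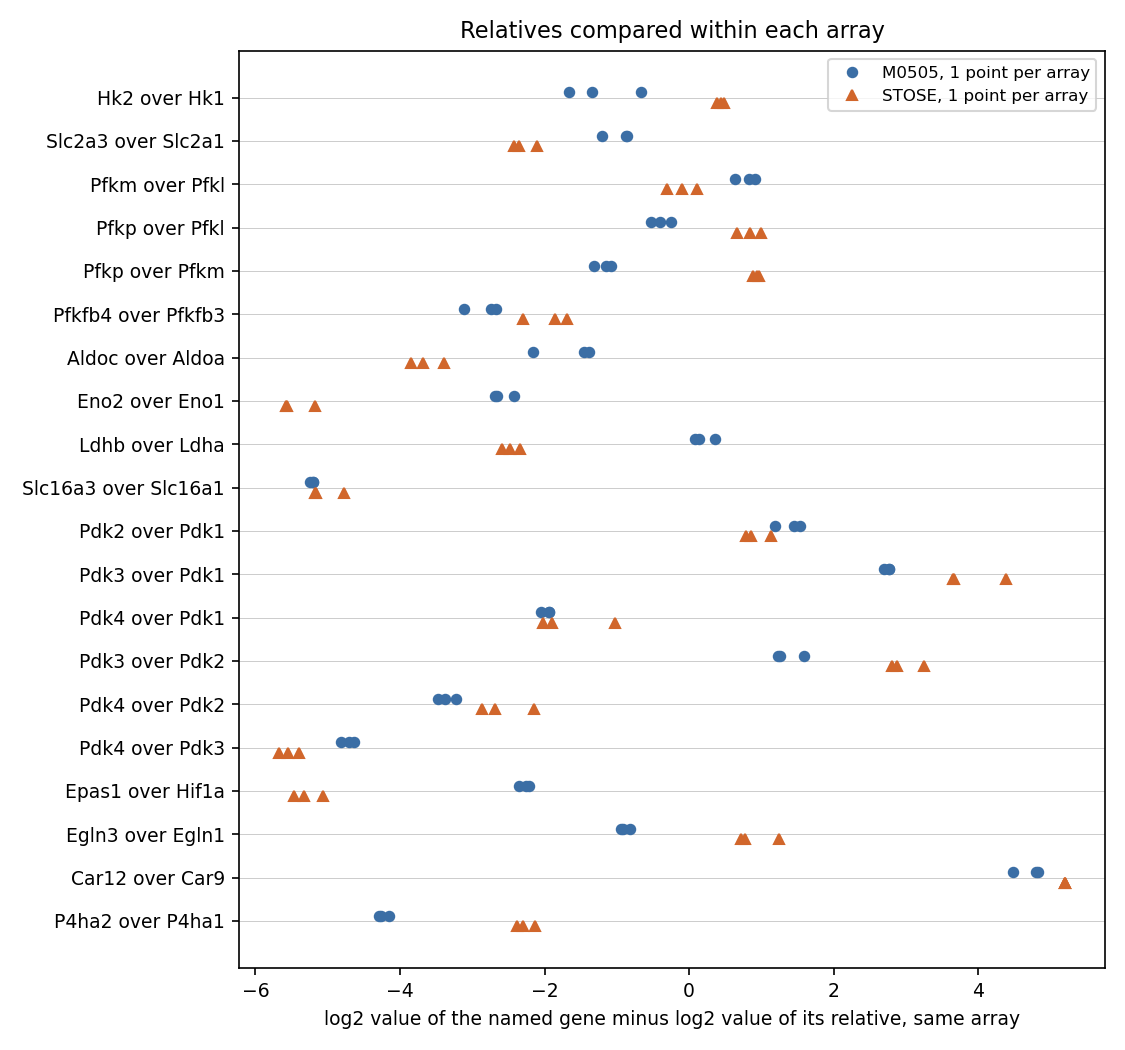
Within-array difference of log2 values for 20 pairs of related genes, with 1 point per array. A shift between the lines means that the pair changed unequally, while the position of a pair on the axis has no meaning between pairs. The *Epas1* over *Hif1a* and *Eno2* over *Eno1* points of STOSE lie lowest relative to M0505, and *Pfkp* over *Pfkm* rises most.

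For 8 members the array carries more than 1 probe set, and the change can be read again. Probe set numbers follow the genome, since for 99.5% of 18337 genes with 1 probe set most of the 20 nearest numbers belong to genes of the same chromosome. Where a probe set was numbered among genes of another chromosome, its gene name is the one given in the deposited table and was not checked by sequence. The *Bnip3* probe set with the larger fall was numbered among genes of chromosome 14 (19 of 20 neighbours), while *Bnip3* lies on chromosome 7, and the probe set with the change of -2.16 was numbered among genes of chromosome 7. For *Ldhb*, on chromosome 6, the brighter probe set was numbered on chromosome 19, and the probe set numbered on chromosome 6 read means of 9.41 and 7.67, a change of -1.74 (SE 0.17, adjusted p = 3.99e-05 with that probe set in its place). The *Eno1* probe set numbered on its own chromosome was higher by 0.92, against 0.72 for the one used. The 42 *Gapdh* probe sets gave changes of 0.03 to 0.22 and the 3 of *Pgk1* gave 0.46 each. The 3 of *Pgam1* gave 0.30 to 0.37, the 2 of *Gpi1* 0.05 and 0.11, and the 2 of *Pdha1* 0.15 and 0.55. With the probe set on the gene's own chromosome used throughout, the members stayed at 5 called higher and 8 lower.

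**Figure D4:**
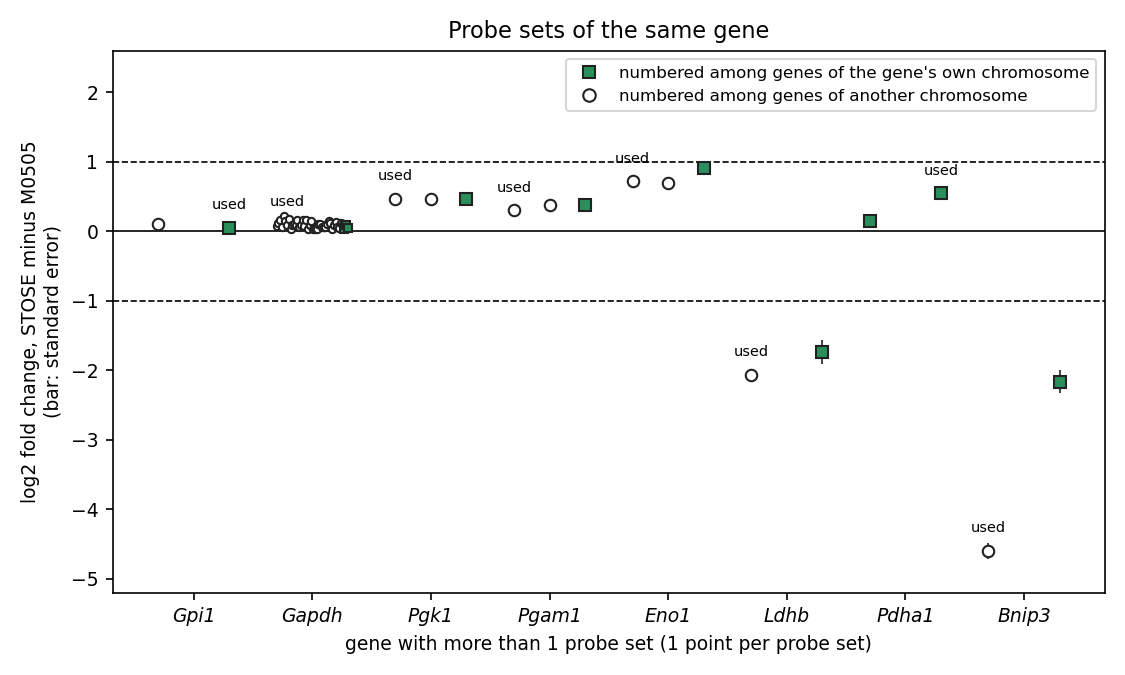
Log2 fold change, STOSE minus M0505, of every probe set of the 8 genes with more than 1, with the standard error as a bar where it exceeds the point. Filled squares are probe sets numbered among genes of the gene's own chromosome, and the word marks the one used. Both *Bnip3* and both *Ldhb* probe sets lie under -1, and the *Bnip3* values of -4.59 and -2.16 differ most.

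Other genes of the same pathways were read from a list of 113 symbols, of which 108 were on the array. Of these, 5 were called higher and 10 lower, with 32 higher and 38 lower by adjusted p alone, against the 4.9%, 7.59%, 31.6% and 24.8% of all genes. With each array centred on its median the calls were 8 and 6. Their median log2 fold change was 0.07 and the median size 0.32, near those of all genes. The 5 genes called at 4-fold or more were *Eno3*, *Arnt2*, *Ak3l1*, *Rora* and *Mt1*. *Eno3*, the muscle enolase, was 7.16, 7.20 and 7.07 in M0505 and 11.24, 11.05 and 11.12 in STOSE. It rose by 4.00 (15.9-fold, adjusted p = 5.2e-09), so that of the enolase genes *Eno1* and *Eno3* were higher in STOSE and *Eno2* was lower. *Slc2a6*, a sugar transporter gene, was higher by 1.03 and *Slc2a8* lower by 1.14. Of 16 other pyruvate and lactate genes 0 were called, with 5 higher and 5 lower by limma's adjusted p. The mitochondrial pyruvate carrier genes *Brp44l* (Mpc1) and *Brp44* (Mpc2) differed by -0.42 and -0.09 (adjusted p = 0.000231 and 0.378). *Bsg*, the chaperone of the lactate transporters, was lower by 0.24 (adjusted p = 0.0211).

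Of the 9 pentose phosphate genes, *Taldo1*, which encodes transaldolase, was called lower, by 1.55. *9630033F20Rik* (Tigar), whose product lowers the activator of phosphofructokinase, differed by -0.13 (adjusted p = 0.108). Among 17 genes of gluconeogenesis and glycogen, *G6pc3*, a glucose phosphatase, was called lower, by 1.01. The fructose bisphosphatases *Fbp1* and *Fbp2*, which run a glycolytic step in reverse, differed by 0.18 and 0.21 (adjusted p = 0.0845 and 0.114).

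Among 9 other genes of the HIF factors and their regulators, *Arnt2* alone was called. *Arnt*, the common β subunit, was higher by 0.36 (adjusted p = 0.000745). Its paralog *Arnt2* was 8.31, 8.28 and 8.35 in M0505 and 5.92, 6.37 and 6.44 in STOSE and fell by 2.06 (adjusted p = 2.94e-06). *Hif3a*, a further α subunit, was under the background level in both lines and differed by 0.02 (adjusted p = 0.859). *Egln2* was lower by 0.24 (adjusted p = 0.0247), and *Hif1an*, the asparagine hydroxylase that blocks HIF activity, differed by 0.14 (adjusted p = 0.185).

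Of 34 further hypoxia targets, 3 were called higher and 6 lower, with 9 and 18 by adjusted p alone, against the same 4.9%, 7.59%, 31.6% and 24.8% of all genes. The median was -0.26, beside 0.08 over all genes, and centring of arrays adds 0.20 to both. *Mt1*, a metallothionein that binds zinc, was 10.22, 10.29 and 10.38 in M0505 and 5.32, 5.44 and 5.46 in STOSE and fell by 4.89 (adjusted p = 2.06e-09). *Ak3l1*, an adenylate kinase gene, was at least 22.7-fold lower against the background level, under which all its STOSE arrays lay (measured means 9.25 and 4.41, adjusted p = 5.98e-09), but a second probe set fell by 1.27 (2.42-fold), and these were numbered among genes of chromosomes 2 and 4. *Rora*, a nuclear receptor, fell by 2.13 (adjusted p = 2.74e-06). Genes called lower also included the stress gene *Ddit4* (-1.15) and the small GTPase gene *Rab20* (-1.55). The genes called higher were *Plod2* (1.57), which like *P4ha2* modifies collagen, *Edn1* (1.43), which encodes endothelin-1, and *Wsb1* (1.14). The angiogenic factor gene *Vegfa* was lower by 0.27 (adjusted p = 0.00643), and *Adm*, which encodes adrenomedullin, differed by 0.08 (adjusted p = 0.412).

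**Figure D5:**
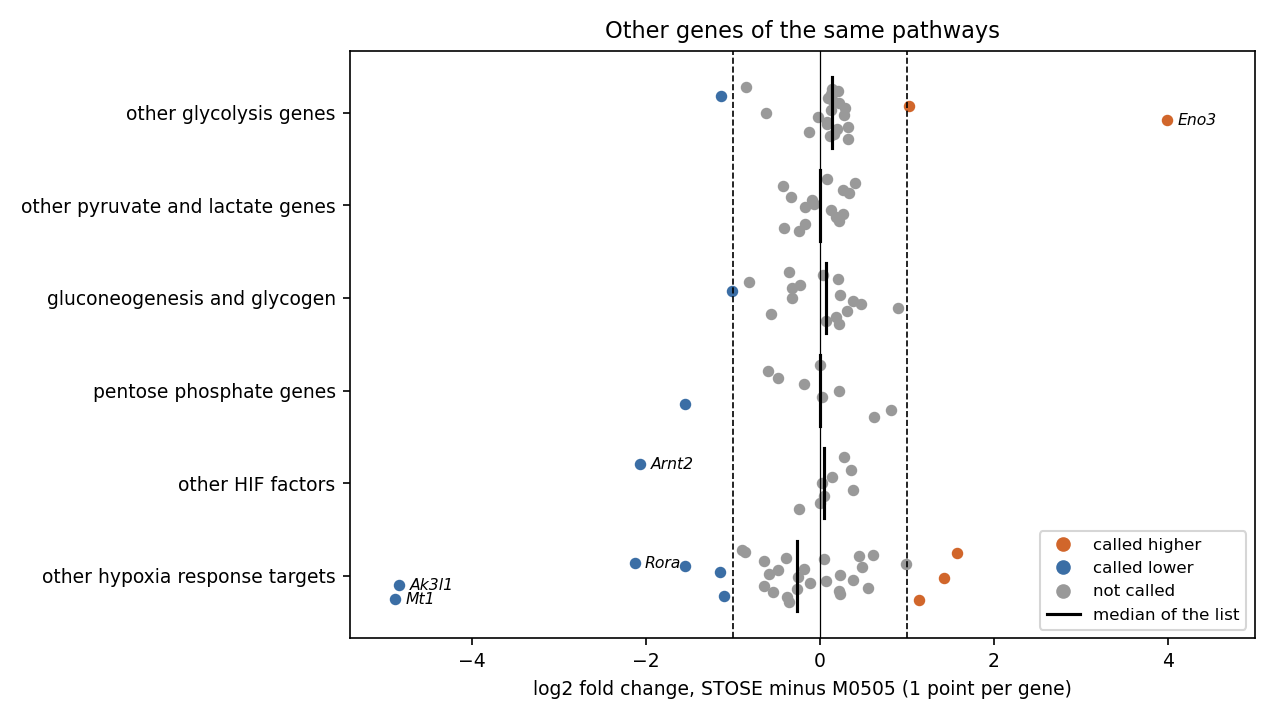
Log2 fold change, STOSE minus M0505, of 108 other genes of the same pathways in 6 lists, with 1 point per gene, a bar at the median of each list and dashed lines at 2-fold. Most genes lie within 2-fold, and the named genes are those called at 4-fold or more, from *Eno3* at 4.00 to *Mt1* at -4.89.

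A shift common to all genes moved between scalings. Array medians over all genes were 6.46 to 6.49 in M0505 and 6.25 to 6.29 in STOSE. Centring each array on its median raised the median change of all genes by 0.20, from 0.08 to 0.28, and turned the calls over all genes from 1000 higher and 1548 lower (39.2% of calls higher) to 1466 and 1177 (55.5%). The members stayed at 5 called higher and 8 lower under this scaling, with 22 higher and 12 lower by adjusted p alone. Under it *Hif1a* was higher by 0.20 (adjusted p = 0.01) in place of 0.00, and the differences of *Slc2a3* and *Slc16a1* turned to 0.16 and 0.12, short of the adjusted p threshold. *Gpi1*, *Gapdh*, *Slc16a3* and *Car9* passed it under centring, at 0.25, 0.29, 0.31 and 0.35, while *Hk1* and *P4ha1* no longer did, at -0.20 and -0.19. Differences of uncalled genes near the size of this shift depend on the scaling.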

How the data were processed

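Total RNA of M0505 and STOSE cells was labeled and read on Affymetrix arrays of the Mouse Gene 1.0 ST design, 3 per line. The authors normalized the arrays with Affymetrix Expression Console by RMA, which corrects background, quantile normalizes across arrays and summarizes probes, and deposited 1 table of log2 values. Versions, genome build and annotation release are not given in the sources used here. The authors' means and linear fold changes in the same table were not used. Each value column was matched to its sample by name, and 0 were left over.

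Of 28944 probe sets, 23530 carried a symbol, for 20405 genes, 1613 of them with more than 1. The highest-mean probe set was kept. The comparison of lines used limma 3.58.1 (lmFit, then eBayes, prior degrees of freedom 4.07) under R 4.3.3, without covariates. It was first tested on simulated data. Arrays have no read depth, and their number limits the precision. The quantile normalization fixes the spread of every array, so a change common to all genes is not measured.

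Family pairs used an exact two-sided permutation test of within-array differences. Chromosomes and promoter windows came from RefSeq tables of GRCm38.p6 by symbol or synonym. Named genes were all 40 members, genes of the pathway list called with at least 4-fold change, and direct partners of members. Other called genes of that list, *Eno3* beside *Eno1* and *Eno2*, and the pyruvate dehydrogenase subunit genes beside *Pdha1* were named after their values were seen. The result of 1 called gene of that list is not reported here. The members and lists were chosen with earlier results of these data known. Alternatives were a further quantile normalization, median centring, filters on dim genes, the mean of probe sets, the methods' t-test, an intensity trend, other fold thresholds, a replicate block, each array left out, and, chosen after seeing the data, the probe set on the gene's own chromosome.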

Additional observations from a re-analysis of the deposited data

How the results depend on the processing

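All 515 values of single members under the alternatives kept their side of the threshold of adjusted p and 2-fold, and 0 members past the adjusted p changed direction. These values leave out the methods' t-test, the intensity trend and the other fold thresholds, for which counts alone were taken. The sign turned in 10 values of 5 members that had not passed the adjusted p, *Slc2a3*, *Gpi1*, *Pfkl*, *Slc16a1* and *Hif1a*. By adjusted p alone 11 uncalled members changed side under at least 1 of the alternatives that these values cover. With the methods' t-test, adjusted over all genes, 15 members were higher and 12 lower by adjusted p alone. *Pfkfb4* no longer passed without M0505 replicate 1 or 3 or STOSE replicate 2 or 3 (0.26 to 0.30), nor *Ankrd37* without M0505 replicate 3 (0.25), nor *Tpi1* with a further quantile normalization (0.12). The members stayed at 5 called higher under each normalization, filter, test and probe set choice, and at 8 lower except with the dimmest 50% of genes left out, which kept 35 members without *Pdk4* and gave 7. Leaving out each array in turn gave 5 higher and 8 lower every time, 5 to 6 higher and 9 to 10 lower in the pathway list, and 12 pairs at 2-fold. Without a fold threshold the counts were 17 and 14 for the members and 32 and 38 for the pathway list. At 1.5-fold they were 8 and 10 for the members, and 10 and 19 for the pathway list. Centring each array on its median gave 8 and 6 for the pathway list. These counts differ because the threshold or the zero point moved. Deviations of same-numbered arrays of the lines correlated at 0.256, 0.0421 and 0.249, and those of differently numbered arrays at -0.293 to 0.119. The labels name no shared batch, so the numbers were not taken as pairs in the main fit. A fit with the replicate block gave 5 and 8 for the members, 5 and 10 for the pathway list and 12 pairs, and by adjusted p alone 15 members lower in place of 14, with *Ndrg1* added (adjusted p = 0.00305). No other background correction could be tried, since array signals were not used here. *Pdk4*, *Bnip3* and *Ak3l1* in STOSE, and *Car9* in both lines, lie near the background level, where a change is compressed.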

Other observations

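In many genes, named here after their values were seen, replicate 1 lay at the same end of both lines. *Hmox1*, the heme oxygenase gene of the hypoxia target list, was 10.18, 9.17 and 9.22 in M0505 and 10.04, 9.40 and 9.28 in STOSE, highest in replicate 1 of each. *Tfrc*, the transferrin receptor gene of the same list, was 10.71, 9.91 and 10.02 and 10.19, 10.04 and 10.05. Among the members, *Pfkl* was 8.44, 8.77 and 8.86 and 8.55, 8.81 and 8.94, lowest in replicate 1 of each line. The labels do not say what the replicates of a number share.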
